A study of Mus musculus with 2 samples.

Results

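The helper lineage transcription factors are a set of 10 genes that steer CD4+ T cells into different kinds of helper cell: Tbx21, Gata3, Rora, Bcl6, Prdm1, Maf, Tox, Nfil3, Bhlhe40 and Ahr. They are a list of gene names. Its rule uses no measured value, but the list was chosen with earlier results of these data known. Splice junctions were named for 8 of the 10 genes, with 47 junctions among 95518 named over 9700 genes. A gene was counted as measured when it had at least 20 junction reads over both libraries, which 7 of the 10 did.

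The mice were C57BL/6JJcl males, and their CD4+ T cells were enriched magnetically from 4 pooled spleens. The stimulated cells had been on plate-bound antibodies to CD3e and CD28, both at 2 ug/ml, for 4 h, and the mock cells had been handled in the same way without antibody. The labels do not say whether both libraries were made from 1 pool. Each group is 1 library, so no difference below has a replicate check, and every interval covers counting error only. The intervals treat reads as independent, but reads are not independent molecules, so the intervals can be too narrow.

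The values are counts of reads across a splice junction, and the totals were 1147232 (mock) and 1341197 (stimulated). Levels are given in RPM, junction reads per 1000000. A gene at 0 reads could still have held up to 2.61 RPM when mock treated and 2.24 RPM when stimulated. Among 7204 measured genes, 17.1% were called higher and 25.1% lower in the stimulated library. Higher means a ratio of at least 2 with an exact 95% interval above 1, and lower means a ratio of at most 0.5 with an interval below 1. Defining T cell markers were abundant: the 10 in the list summed to 5873 RPM (mock) and 7047 RPM (stimulated). They did not move alike: Cd4 itself was called lower, from 650 to 285 reads (0.375, 0.325 to 0.432), and Zap70 was called higher, from 316 to 1557, while the other 8 met neither condition. The 12 B cell markers summed to 199.6 and 146 RPM, 8 named myeloid markers of 12 listed to 46.2 and 50.7, and 6 named NK and innate lymphoid markers of 9 listed to 42.7 and 49.2. Markers of all 3 of these other cell groups therefore had reads in both libraries. The plasma cell marker Jchain alone had 764 mock and 627 stimulated reads, beside 229 and 196 for the whole B cell list.

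As background, naive CD4+ T cells take on a helper program after the T cell receptor and costimulatory receptors are engaged, under the influence of cytokines. T-bet, the product of Tbx21, drives the interferon-gamma-producing Th1 lineage, GATA3 drives Th2, and Rora acts in Th17 cells and innate lymphoid cells. Bcl6 is the repressor that defines follicular helper cells, and Blimp-1, the product of Prdm1, opposes it. c-Maf, Tox, Nfil3, Bhlhe40 and the ligand-activated receptor Ahr act across lineages, on cytokine production, T cell development and the clock-linked control of transcription.

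The junctions on which the results turn are shown as exon-exon joins, because a junction read is a read across such a join. Letters are from the GENCODE M21 transcripts (GRCm38), 15 bases from each exon, 5′ to 3′. Lower case is the end of the upstream exon and capitals are the start of the downstream exon. The mm9 positions are those of the introns in the deposited files. The join of exons 1 and 2 of Tbx21 (intron chr11:96963413-96975963, minus strand) had no read in the mock library. The join of exons 1 and 2 of Bhlhe40 (chr6:108610987-108611154, plus strand) was the most-read one of that gene. In Bcl6, the join of exons 4 and 5 (chr16:23973306-23974898, minus strand) had the lowest ratio of the named joins. That of exons 9 and 10 (chr16:23966355-23968145) had the most reads. A pair of Bcl6 joins, exon 6 to exon 8 and exon 5 to exon 7, leave out an exon. The join of exons 1 and 2 of Tox (chr4:6769574-6917536, minus strand) spans its longest intron, and the first join of Rora (chr9:69137856-69195938, plus strand) belongs to a short form of that gene.
Tbx21 exons 1 and 2: cactaagcaaggacgGCGAATGTTCCCATT
Bhlhe40 exons 1 and 2: cggagacctgtcaggGATGGATTTTGCCCA
Bcl6 exons 4 and 5: gttcatcaaggccagTGAAGCAGAAATGGC
Bcl6 exons 9 and 10: gagaaaccttaccatTGTGAGAAGTGTAAC
Bcl6 exons 6 and 8: cggattctagctgtgGTGAGAAACCCTATC
Bcl6 exons 5 and 7: taatctcgtgaacagAGAATGGGACCTTCT
Tox exons 1 and 2: tactattgcaacaagTTTGACGGGGAGAAC
Rora exons 1 and 2: tcgcagcgatgaaagCTCAAATTGAAATTA

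Of the 7 measured factors, 3 were called higher (42.9%, beside 17.1% of all measured genes), none was called lower (beside 25.1%), and 4 met neither condition. The 3 were Tbx21, Bhlhe40 and Bcl6. Tox had a ratio above 1 but under 2, and Gata3, Rora and Prdm1 had intervals that included 1. In bulk RNA of this kind, fewer cells of a type and less RNA per cell cannot be told apart.

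**Figure D1:**
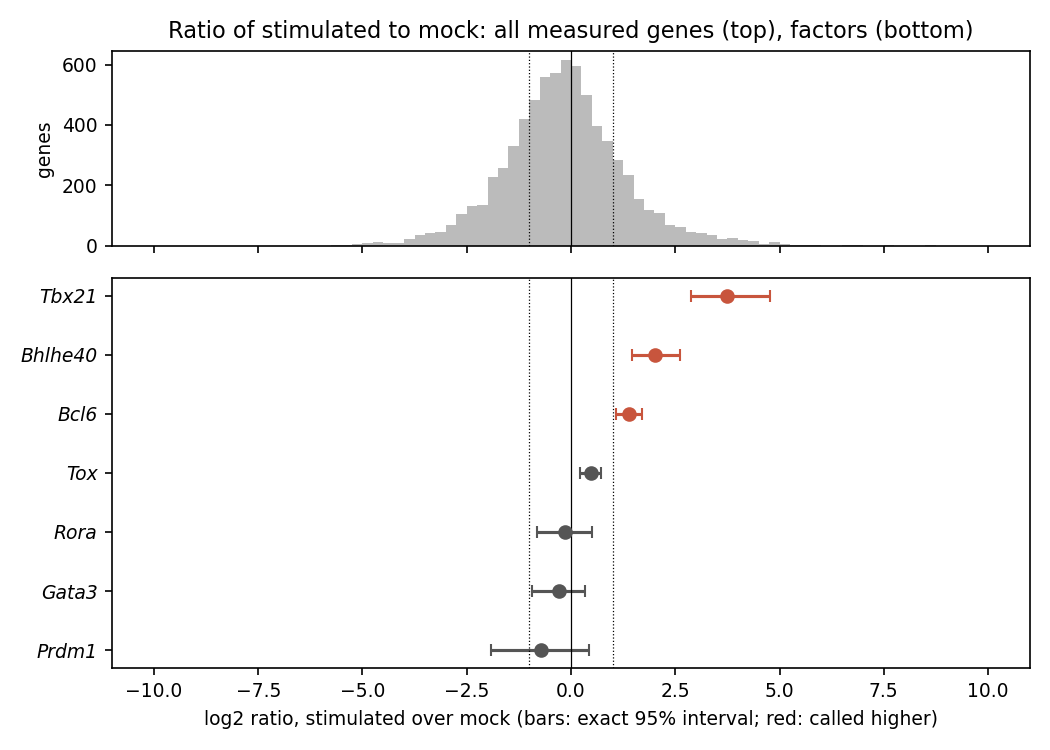
Log2 ratio of stimulated to mock junction reads, as a histogram over the 7204 measured genes (top) and for the 7 measured factors with exact 95% intervals (bottom; red, called higher; dotted lines, a ratio of 2 and its inverse). Tbx21, Bhlhe40 and Bcl6 lie wholly to the right of the upper dotted line, and the intervals of Rora, Gata3 and Prdm1 cross 0.

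Tbx21 encodes T-bet, the factor that opens the interferon gamma locus in Th1 cells. Its 5 junctions, which are all the introns of its transcript (chr11:96960693-96975963), held 11 mock and 172 stimulated reads. That is 9.59 against 128 RPM, a 13.4-fold difference (7.29 to 27.3). Among all measured genes 1.35% had a higher ratio. Every one of the 5 junctions had more stimulated than mock reads: 0 and 13 for intron 1, 2 and 50 for intron 2, 4 and 17 for intron 3, 5 and 56 for intron 4, and 0 and 36 for intron 5. The mock reads lay on introns 2 to 4. With 11 mock reads, a count of 0 allows a share of up to 28.5% of the gene's reads. The stimulated shares of introns 1 and 5 were 7.56% and 20.9%, so a difference at these joins could not be shown. Beside this, NK cells also express Tbx21, and the summed NK and innate lymphoid markers stood at 42.7 and 49.2 RPM. Of these, Klrk1 and Klrg1 were at 0 reads in the mock library, Klrd1 went from 38 to 20 reads and Eomes from 7 to 36. Eomes is also counted below in the Th1 list and among the close relatives of the factors. The part of the NK and innate lymphoid markers in the result was not tested.

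Bhlhe40 encodes a basic helix-loop-helix repressor that supports cytokine production by helper cells and also acts in the circadian clock. It had 32 mock and 152 stimulated reads on its 4 introns (chr6:108610987-108614472), a 4.06-fold difference (2.76 to 6.15). The counting interval did not overlap that of Tbx21, but with intervals widened by the spread among junctions (2.34 to 7.49 for Bhlhe40 and 5.69 to 39.9 for Tbx21) they overlapped. The reads lay mostly at the 5′ end of the gene: introns 1 to 4 had 14, 9, 3 and 6 mock reads and 89, 45, 7 and 11 stimulated reads. The ratios of introns 1 and 2 were 5.44 (3.08 to 10.3) and 4.28 (2.06 to 9.95), and those of introns 3 and 4 were 2.00 and 1.57, both with intervals that included 1. The 4 intervals overlapped, so a gradient along the gene could not be shown at this depth. Bhlhe40 is also expressed in myeloid cells, whose markers summed to 46.2 and 50.7 RPM. Lyz2 and Flt3 were at 0 reads in the stimulated library, while Csf2ra (5 and 27 reads) and Cybb (5 and 19) were called higher, and their part in the result was not tested.

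Bcl6, the repressor of the follicular helper program, had 117 mock and 358 stimulated reads on 9 junctions (chr16:23966355-23988660), or 102 and 267 RPM. The ratio was 2.62 (2.12 to 3.25), and its interval overlapped that of Bhlhe40. Bcl6 is also made by B cells of germinal centres. The B cell markers went the other way in sum, from 199.6 to 146 RPM. None of the 12 genes was at 0 reads, 1 of them, Blk, was called lower and none higher, and their part in the Bcl6 result was not tested.

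By their counting intervals, the junctions within Bcl6 did not move alike. The join of exons 4 and 5 had 31 mock reads and 32 stimulated reads, a ratio of 0.883 (0.522 to 1.50), while the join of exons 9 and 10 had 33 and 123, a ratio of 3.19 (2.16 to 4.84). These intervals did not overlap. The intervals in this paragraph were not widened by the spread among junctions, which for Bcl6 was 3.24 times the counting variance. The interval of the exon 4 to 5 join was also separate from those of introns 7 and 8. It overlapped those of introns 1, 2, 3, 5 and 6. The 2 libraries differed in how much of the gene's reads lay on the exon 4 to 5 join: 26.5% in the mock library (18.8 to 35.5) and 8.94% in the stimulated library (6.19 to 12.4). The other 8 joins had ratios from 2.00 to 4.70, and without the exon 4 to 5 join the gene stood at 3.24-fold (2.55 to 4.16). The joins of exons 5 to 6 and 6 to 7 had 11 and 34, and 12 and 35 reads. The most 5′ joins, in the untranslated leader and the start of the coding part, were thin: 3 and 7 reads for intron 1, 2 and 8 for intron 2, and 2 and 11 for intron 3.

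The exon-skipping joins of Bcl6 had reads in the stimulated library. The join of exon 6 to exon 8 (chr16:23968524-23971500) had 0 mock and 6 stimulated reads and leaves out exon 7, of 168 bases, a multiple of 3. The join of exon 5 to exon 7 (chr16:23970160-23972330) also had 0 and 6 reads and leaves out exon 6, of 185 bases. At the donor of exon 6, skipping made up 14.6% of 41 stimulated reads (5.57 to 29.2) and 0 of 12 mock reads, which allows a share of up to 25%. A difference between the libraries was therefore not detectable at this depth. No splice site of any factor had a second junction and 20 reads in each library, so none entered the comparison in which 1.59% of 4283 sites in the whole table differed.

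**Figure D2:**
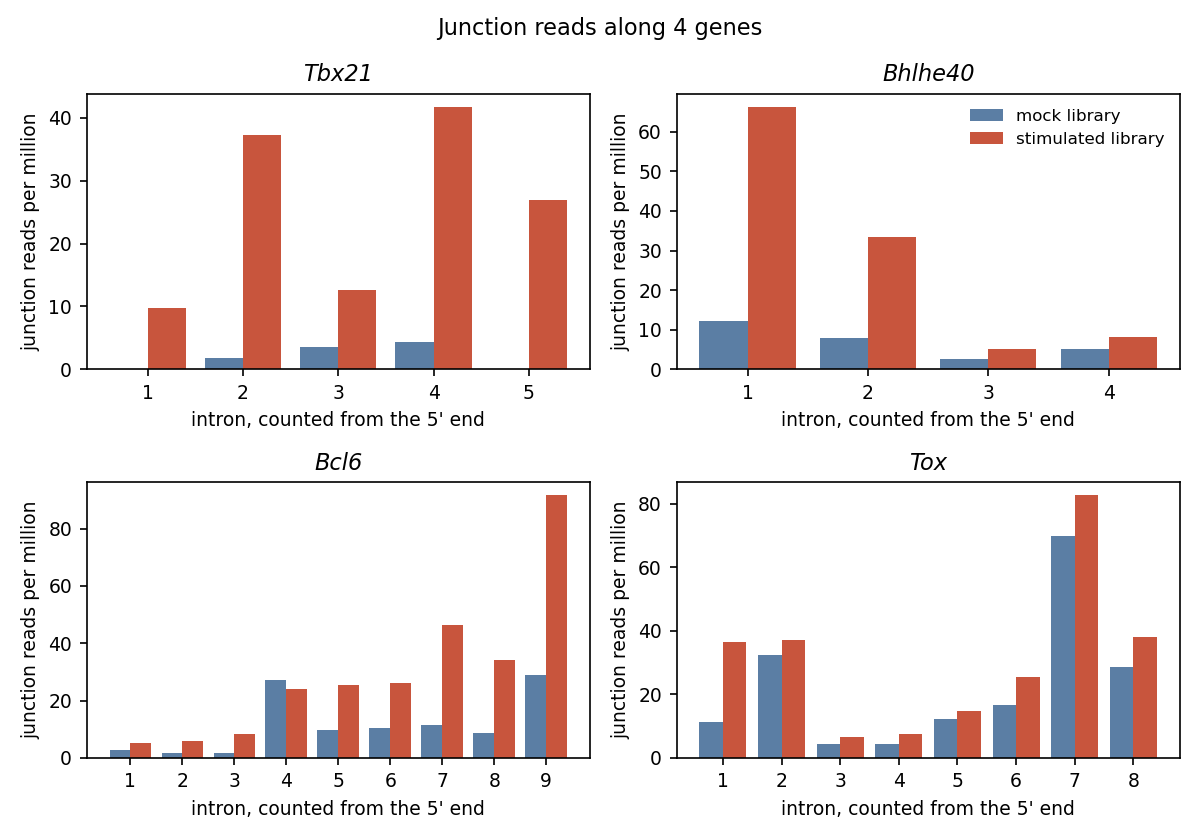
RPM, junction reads per 1000000 (vertical axis), at each intron, counted from the 5′ end, of Tbx21, Bhlhe40, Bcl6 and Tox, in the mock library (blue) and the stimulated library (red). Intron 4 of Bcl6 is the one bar pair of that gene with less in the stimulated library, and intron 1 of Tox is the widest gap of that gene.

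Tox encodes a DNA-bending HMG-box protein needed for CD4+ T cell development in the thymus. Per junction it was the most abundant of the measured factors in the mock library, with 206 mock and 334 stimulated reads on its 8 introns (chr4:6615609-6917536). The ratio of 1.39 (1.16 to 1.66) met neither condition. Its first intron, of 147963 bp, had the highest ratio of the gene: 13 mock and 49 stimulated reads, 3.22 (1.72 to 6.48). That counting interval, which was not widened, was separate only from that of intron 7 (0.882 to 1.60). It overlapped those of the other introns. The other 7 introns had ratios from 1.16 to 1.71, and together they gave 1.26 (1.05 to 1.52). The share of the gene's reads on the first intron was 6.31% in the mock library (3.40 to 10.5) and 14.7% in the stimulated library (11.1 to 18.9).

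Such shifts within a gene were looked for in the 5 factors with 3 or more junctions and at least 20 reads in each library. Shares had separate counting intervals for 2 of 34 junctions (5.88%), beside 3.08% of 72187 junctions over all genes. These 2 were the exon 4 to 5 join of Bcl6 and the first join of Tox. The spread between the junctions of a gene was 3.24 times the counting variance for Bcl6, 1.98 for Bhlhe40 and 1.54 for Gata3. It was 1.44 for Tox and 0.306 for Rora, and 2.02 when pooled over 4914 genes. Bcl6 thus had the least uniform junctions of the 5.

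Gata3, the Th2 factor, which is also needed for T cell development and in innate lymphoid cells, had 45 mock and 43 stimulated reads on 4 of its 5 introns (chr2:9780282-9798978). The ratio was 0.817 (0.525 to 1.27). Introns 3, 4 and 5 had 7 and 4, 13 and 11, and 21 and 17 reads, and intron 2 had 4 and 11. The interval leaves room for a fall of nearly the size of the threshold and for a small increase.

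Rora, a retinoid-related orphan receptor that acts in Th17 cells and innate lymphoid cells and in the clock, had 40 mock and 42 stimulated reads on 9 introns (chr9:69137856-69226603). The ratio was 0.898 (0.568 to 1.42), and its direction depended on the scaling: with TMM scaling (the trimmed mean of M values) it was 1.06. All 9 junctions belong to the short transcript form Rora-202, and the first of them, with 4 and 7 reads, belongs to that form alone. No junction with reads belonged to the long form Rora-201 alone, in either library. Reads per junction ran from 0 to 11, and no intron of Rora had an interval that excluded 1.

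Prdm1, which encodes Blimp-1, the factor that ends proliferation and blocks the follicular program, was low in both libraries. It had 17 mock and 12 stimulated reads on 6 introns (chr10:44160049-44178272), a ratio of 0.604 (0.263 to 1.34). The interval includes both a fall past the threshold and no change. Prdm1 is high in plasma cells, and of the plasma cell markers Jchain, the joining chain of secreted antibodies, had 764 and 627 reads, Xbp1 67 and 77, Sdc1 3 and 0, and Mzb1 5 and 6. The remaining marker of that list, Irf4, which activated T cells also express, had 93 and 2443 reads. The part of these markers in the Prdm1 reads was not tested.

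Ahr, the aryl hydrocarbon receptor, which promotes IL-22 and IL-10 production, had 2 reads in each library, below the minimum, on intron 10 of 10 in the mock and on intron 9 in the stimulated library. Maf and Nfil3 had no value, because naming by spacing needs 2 matched introns of a transcript, and Nfil3 has 1 intron while Maf had reads on 1 of 2. By intron length and position between named neighbouring genes, 1 junction each could be found. For Nfil3 (chr13:53064391-53076229) it had 0 mock and 4 stimulated reads, and for Maf (chr8:118208662-118217031) 0 and 3. No ratio is given for these.

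Per junction, the levels of the factors could be set beside each other. In the mock library Tox stood highest, at 22.4 RPM per named junction (19.5 to 25.7). Bcl6 followed at 11.3 (9.37 to 13.6), Gata3 at 9.81 (7.15 to 13.1) and Bhlhe40 at 6.97 (4.77 to 9.84), and each of these 3 overlapped its neighbour. Rora at 3.87 (2.77 to 5.28), Prdm1 at 2.47 (1.44 to 3.95) and Tbx21 at 1.92 (0.957 to 3.43) formed the low end, again overlapping their neighbours.

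In the stimulated library 4 factors lay close together at the top: Tox at 31.1 (27.9 to 34.7), Bcl6 at 29.7 (26.7 to 32.9), Bhlhe40 at 28.3 (24.0 to 33.2) and Tbx21 at 25.6 (22.0 to 29.8). The intervals of these 4 overlapped. Gata3 at 8.02 (5.80 to 10.8), Rora at 3.48 (2.51 to 4.70) and Prdm1 at 1.49 (0.771 to 2.60) lay below them with no overlap. Tbx21 thus moved from place 7 to place 4 of 7 in the order, and its stimulated level did not overlap that of Gata3.

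**Figure D3:**
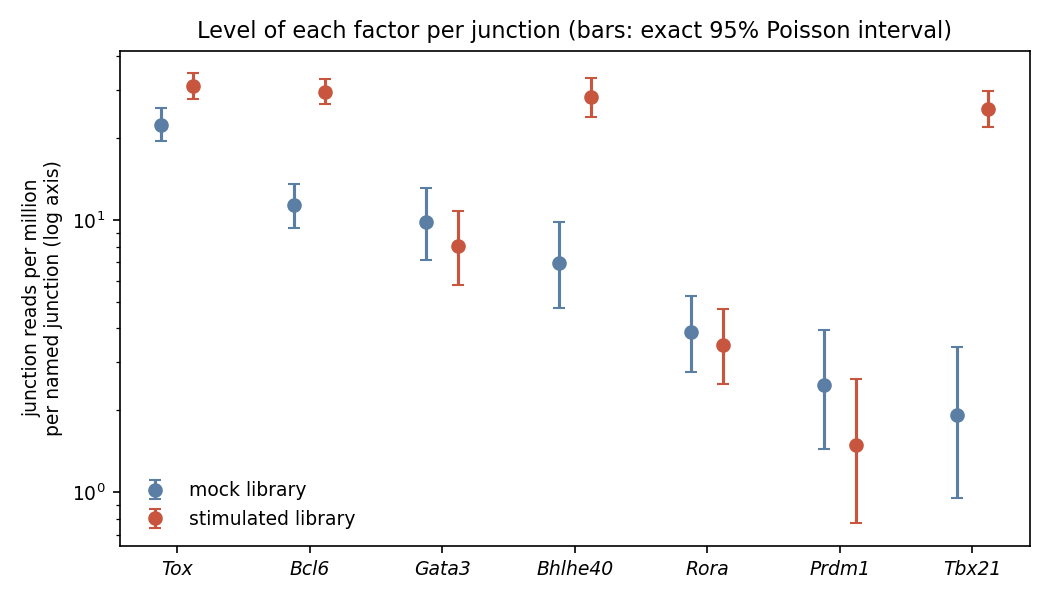
RPM per named junction (log axis) of the 7 measured factors in the mock (blue) and stimulated (red) library, with exact 95% Poisson intervals. Tox, Bcl6, Bhlhe40 and Tbx21 reach overlapping levels between 25.6 and 31.1 in the stimulated library, from mock levels between 1.92 and 22.4.

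Promoter windows were at hand for 6 of the 10 factors in the RefSeq table (GRCm38.p6). Those of Tbx21 (chr11:97115332-97115581, minus strand) and Bcl6 (chr16:23988853-23989102, minus strand) are shown because both genes were called higher. Bcl6 has a second window in that table (chr16:23981284-23981533, minus strand), which is not printed. They give the 250 bases before the start, 5′ to 3′, with capitals on the matches to GGAAA, the core that NFAT factors bind, and to CACGTG, an E-box, on either strand.
Tbx21: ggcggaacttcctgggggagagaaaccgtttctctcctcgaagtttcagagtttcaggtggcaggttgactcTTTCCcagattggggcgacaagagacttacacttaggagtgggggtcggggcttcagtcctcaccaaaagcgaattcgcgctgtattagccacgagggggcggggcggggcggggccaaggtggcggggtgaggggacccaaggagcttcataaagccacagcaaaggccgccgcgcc
Bcl6: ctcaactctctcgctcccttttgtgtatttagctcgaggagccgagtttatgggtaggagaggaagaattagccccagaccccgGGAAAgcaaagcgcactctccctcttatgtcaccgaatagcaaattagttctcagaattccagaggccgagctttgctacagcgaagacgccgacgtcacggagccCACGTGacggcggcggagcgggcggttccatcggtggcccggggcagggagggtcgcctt
Both printed windows hold GGAAA once, and 55.6% of 32851 windows hold it at least once. The printed Bcl6 window holds an E-box, found in 6.02% of windows. The second Bcl6 window holds GGAAA 3 times and no E-box. The AP-1 motif TGANTCA was in none of these 3, and Prdm1 was the 1 factor with a match to it, 48 bases before the start (6.75% of windows). The core GCGTG, bound by Ahr, was in the windows of Rora and Prdm1 (28.2% of all windows), and AGATAA, a motif that Gata3 binds, was in no window of a factor (9.99% of all windows). No match overlapped another in the printed windows. A match describes the letters alone. The window of Rora in that table lies at the start of the long form.

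Close relatives of the factors were read in the same way. Of 22 listed genes 11 were measured. Of these 5 were called higher (45.5%, beside 17.1% of all measured genes) and 1 called lower (9.09%, beside 25.1%). Their median log2 ratio was 0.68, beside −0.21 over all measured genes. Eomes, the T-box relative of Tbx21, went from 7 to 36 reads (4.40-fold, 1.93 to 11.7). The HMG-box genes Tox2, from 4 to 21 reads, and Tox4, from 10 to 36, were 4.49-fold and 3.08-fold higher, and the small Maf gene Mafg, from 5 to 21, was 3.59-fold higher (1.32 to 12.2). Arnt, the partner with which Ahr binds DNA, was the gene called lower, from 243 to 102 reads, a ratio of 0.359 (0.282 to 0.454). Prdm2 (60 and 63 reads), Mafk (8 and 13), Tef (23 and 14), Bhlhe41 (17 and 10) and Hif1a (558 and 1044) met neither condition. The genes called higher here had few mock reads, and at a minimum of 50 reads none of them remained measured. When the spread among a gene's junctions was added to the intervals, 3 were higher.

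Beside the lists of helper program genes, 17.1% of all measured genes were called higher and 25.1% lower. In the Th1 list 8 of 14 measured genes were called higher (57.1%) and 3 called lower (21.4%), and the median log2 ratio was 1.78. The chemokine gene Ccl4 had the highest ratio, from 2 to 449 reads. Ifng itself, the cytokine that T-bet controls, was read 3 and 34 times. On the other side Il18r1, a receptor chain for IL-18, fell to a ratio of 0.168 (0.0983 to 0.273), and Stat4, which carries the IL-12 signal, to 0.426 (0.373 to 0.486).

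In the Th2 list 3 of 9 measured genes were called higher (33.3%) and 1 called lower (11.1%), with the median at 0.15. Crtam, a surface receptor of activated T cells, went from 2 to 48 reads, and Gfi1, a repressor that favours growth of Th2 cells, from 20 to 245. Stat5b was lower (0.355, 0.319 to 0.395), and Stat6, which carries the IL-4 signal to Gata3, stood at 1.11 (1.01 to 1.21). The effector cytokine Il4 had 3 and 8 reads, under the minimum.

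In the Th17 list 6 of 13 were called higher (46.2%) and 2 called lower (15.4%), with the median at 0.81. Irf4 had both the highest ratio and the most reads (93 and 2443), and Il6ra, the IL-6 receptor, the lowest ratio (0.227, 0.180 to 0.284). Il17a and Il22 had no mock read and 9 and 14 stimulated reads, under the minimum. Batf was the other gene called lower, from 17 to 6 reads, and was not so called with widened intervals.

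The follicular helper list split into 7 higher (53.8%) and 6 lower genes (46.2%), with the median at 1.42 and none of the 13 measured in between. Pou2af1, a coactivator, was highest (11.2-fold, 6.07 to 22.9), from 11 to 144 reads. Pdcd1, Icos, Cd40lg, Btla, Cd200 and Tox2, most of them genes of surface receptors and ligands, were the others that were higher. The lower genes were Tcf7, Lef1, Sh2d1a, Slamf6, Il6ra and Batf, among which Tcf7 (3717 to 419 reads) and Lef1 (2347 to 321) encode factors that act upstream of Bcl6. TMM scaling also gave 7 and 6. Widened intervals gave 6 and 5, so the split without genes in between did not hold there. The counts were also 6 and 5 with the most-read junction alone, without it, with junctions read in both libraries and at a minimum of 50 reads. Tox2, Il6ra and Batf also stand in another list.

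In the regulatory T cell list 5 of 16 were called higher (31.2%) and 2 called lower (12.5%), with the median at 0.04. Foxp3, which defines regulatory T cells, went from 101 to 258 reads (2.19-fold, 1.73 to 2.78). Il2ra was highest, from 73 to 1537 reads, Tgfb1 had the most reads (421 and 1417), and Itgae, an integrin chain, was lowest, from 36 to 9 reads (0.214, 0.0906 to 0.452).

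**Figure D4:**
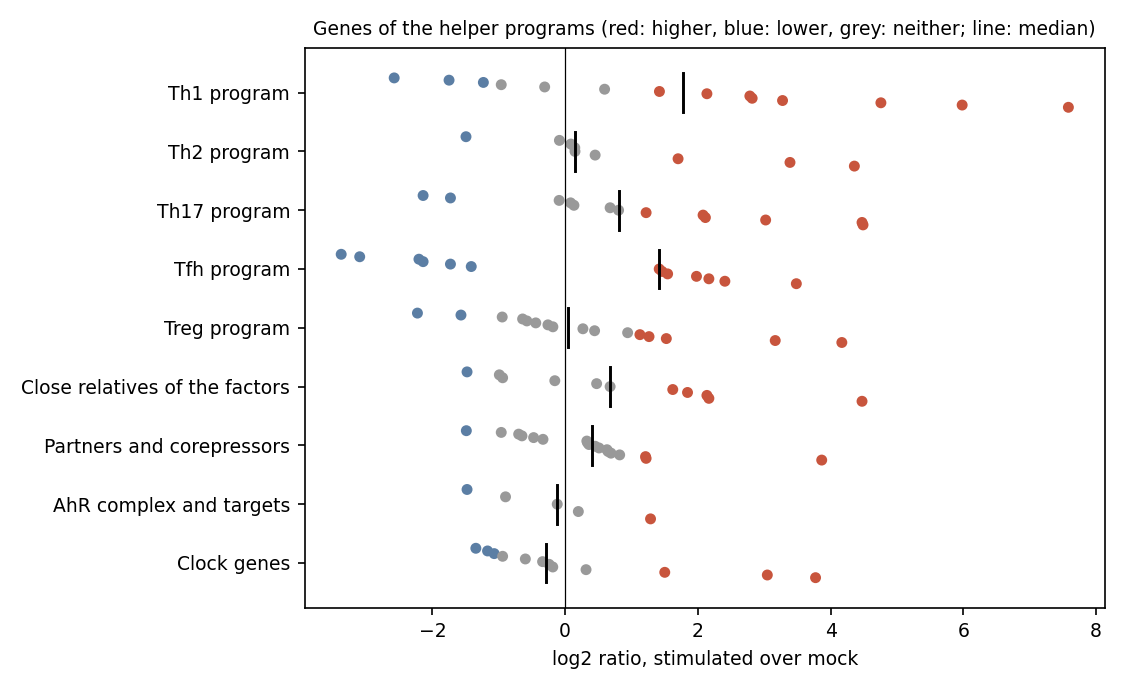
Log2 ratio of stimulated to mock for every measured gene of 9 lists (points; red, higher; blue, lower; grey, neither) with the median of each list (black line). The follicular helper list has no grey point, and the Th1 list reaches furthest to the right, with Ccl4.

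Partners of the factors were mostly in neither class: 3 of 18 measured genes were higher (16.7%, beside 17.1% of all genes) and 1 lower (5.56%, beside 25.1%), with a median of 0.41. Kdm6b, a demethylase of repressive histone marks that works with T-bet, was the highest and most-read, from 158 to 2696 reads (14.6-fold, 12.4 to 17.2). Bcor, a corepressor that Bcl6 recruits, was 2.32-fold higher (1.86 to 2.91), while the corepressor Ncor1 stood at 0.720 (0.666 to 0.778). Zbtb7b, the ThPOK factor that fixes the CD4 fate, was lower, from 36 to 15 reads (0.356, 0.181 to 0.667).

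In the list of the Ahr complex and its targets 5 genes were measured. Of these 1 was higher (20%, beside 17.1% of all measured genes) and 1 lower (20%, beside 25.1%). The median was −0.12 and became 0.12 with TMM scaling. The chaperone gene Hsp90ab1 was highest, at 2.44-fold (2.33 to 2.56), Arnt was lowest, and the target Tiparp had 13 and 14 reads. Of the clock genes, to which Bhlhe40, Nfil3 and Rora are linked, 12 were measured, with 3 higher (25%) and 3 lower (25%) and a median of −0.29. Over all measured genes 17.1% were higher and 25.1% lower, so the lower share is near that of all genes. Per2 (6 to 96 reads), Ciart (3 to 29) and Per1 (257 to 851), all repressors in the clock, were higher. Clock (61 to 34), Arntl (226 to 104), the activating pair, and Nr1d2 (25 to 13) were lower. With TMM scaling 3 were higher and 1 lower, in place of 3 and 3.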

How the data were processed

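The sources used here are 2 lists of splice junctions, 1 per library, as the authors deposited them. Per the file headers they are TopHat junctions, and the score column holds raw counts of reads per junction. The submitters' processing notes name TopHat, Cufflinks and mm9, while for versions, settings and filters: not given in the sources used here. Introns were compared with GENCODE M21 (GRCm38) by length and spacing, with no coordinate converted. A junction was named when at least 2 introns of 1 transcript matched in length, strand and distance, and it went to the gene with the most matches. This named 95518 of 124183 junctions (76.9%), and 238 that fitted more than 1 gene equally were left out. In 21 decoys with exchanged chromosomes 6.0 junctions were named on average, 14 at most. An aligner that misses a junction lowers its gene's value.

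Gene values are summed reads per 1000000 junction reads, with Clopper-Pearson intervals for ratios and shares and Poisson intervals for levels (Python 3.11.15, scipy 1.17.1). A count of 0 was set to 3 in a ratio. With 1 library per group no p-value was computed. The steps were tested on simulated data. The factors and lists were chosen with earlier results of these data known. Of each list the highest, lowest and most-read measured genes are named, with the close relatives measured and Foxp3; a few genes that this rule names are not reported here, but they are in the counts. Other genes, the shares within genes and the gene values without 1 junction were chosen after seeing the data. Of the marker lists not given in the text, the CD8 gene Cd8b1 had 16 and 5 reads, the plasma cell list 932 and 3153 (2443 of the latter from Irf4, which activated T cells also express), and the erythroid list 3 and 14.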

Additional observations from a re-analysis of the deposited data

Results flagged for a closer look

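A few junctions of the factors lie outside the values used above, had no read in the mock library and had more than the 3 reads that a count of 0 allows in the stimulated library. They are the Bcl6 join that leaves out exon 7 (6 reads), the Bcl6 join that leaves out exon 6 (6 reads) and the single junction of Nfil3 (4 reads). With these numbers and 1 library per group, no difference between the libraries was tested.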

How the results depend on the processing

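Under each of the 11 other settings tried, 3 factors were called higher and none lower. Over these settings Tbx21 ranged from 9.56 to 16.5, Bhlhe40 from 2.99 to 5.44 and Bcl6 from 2.39 to 3.19. The trimmed mean of M values put the point of no change at a log2 ratio of −0.24. It gave 1553 genes higher and 1411 lower over the whole table, 52.4% higher among the calls, in place of 1232 and 1805, 40.6% higher. Rora changed direction with this scaling (1.06), with the median of ratios (1.05) and with its most-read junction alone (1.18), each with an interval that included 1. No paired analysis was possible because each group has 1 library.

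Small list counts moved as follows. Lower clock genes went from 3 to 1 under both scalings, with the most-read junction alone, and with junctions read in both libraries. At a minimum of 10 reads or none, lower Th2 genes went from 1 to 2 and lower relatives from 1 to 2, and with none higher Ahr genes went from 1 to 2. At 50 reads higher Th1 genes went from 8 to 5, lower Th17 genes from 2 to 1, lower regulatory T cell genes from 2 to 0 and higher relatives from 5 to 0. With the most-read junction alone lower Th17 and lower regulatory T cell genes were 1 each, higher relatives 0, and lower relatives, lower partners and lower Ahr genes 2 each. Without that junction higher Th1 genes were 5, lower Th17 genes 1, higher relatives 2 and lower partners 0. With junctions read in both libraries lower Th17 and regulatory T cell genes were 1 each, higher relatives 3 and lower relatives 2. With widened intervals lower Th17 genes were 1 and higher relatives 3. Stricter naming gave 1 lower Th17 gene and 0 lower partners, and looser naming 2 lower Ahr genes. The cause was not tested. Few reads limit Prdm1, whose interval ran from 0.263 to 1.34, and Ahr, which was below the minimum, while Maf and Nfil3 had no value because of the naming rule.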

Other observations

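A junction on the plus strand lay 4 bases from intron 7 of Tox, had the same length of 8439 bp and held 4 mock and 5 stimulated reads, against 80 and 111 on the minus strand. It was not counted. Of the other unnamed junctions that share a splice site with a factor, those of Tbx21, Gata3 and Prdm1 had at most 1 read in a library.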
